A study of Mus musculus with 10 samples.

Results

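DIDO3, the longest protein of the Dido1 gene, carries a TFIIS central domain and a SPOC domain. The mouse relatives by domain taken as members here were Phf3, Spocd1, Tcea1, Tcea2, Tcea3, Spen, Rbm15 and Rbm15b. The question was whether their RNA differed when DIDO3 was truncated. These 8 genes were named from the mm10 gene annotation, by position and not by level. Other relatives, Tceanc and Tceanc2 among them, were not members and are given with the lists below. The measured features were 3′UTR of UCSC transcripts, each lengthened downstream by 2 kb, and features with the same coordinates were summed into 1 site. Of 43031 features in 28730 sites and 19388 genes, 16 features in 13 sites belonged to 7 of the 8 genes. Spocd1 had no feature at its coordinates and has no value here. Phf3 had 3 sites, Spen 4, Rbm15 2, and Tcea1, Tcea2, Tcea3 and Rbm15b 1 each.

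RNA-seq came from mouse embryonic stem cells (ESC) of C57BL/6 background, grown with LIF on mitomycin-treated feeder fibroblasts or on gelatin. WT cells gave 3 libraries, named replicates 1, 2-3 and 4, because the labelled replicates 2 and 3 share 1 library name and were counted once. DIDO3ΔE16 cells (labelled DIDO3_exon16 mutant, 3 libraries) lost the floxed exon 16 of Dido1 through a SOX2-Cre transgene, which acts in the early embryo. DIDO3ΔCT+HADIDO3 cells (3 libraries) came from the older C-terminal deletion, which affects the same exon, and were reconstituted with HA-tagged DIDO3, so they differ from WT in both the deletion and the added protein. The labels do not say whether libraries of a group came from separate cultures, so p-values measure only the spread between these libraries, which may be technical.

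The TFIIS central domain takes its name from transcription factor IIS, which binds RNA polymerase II that has stalled and backtracked and stimulates the cleavage of its transcript so that elongation can resume. TFIIS is made from Tcea1, Tcea2 and Tcea3. The SPOC domain is a binding surface for phosphorylated peptides and corepressors. PHF3 and SPOCD1 carry both domains, as DIDO3 does, whereas SPEN, RBM15 and RBM15B carry SPOC beside RNA recognition motifs.

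Values are in TPM, transcript abundance normalised to length and to the library's total, so levels of windows can be set side by side. A window is not a gene, however, since the share of its bases that is 3′UTR, intron or downstream sequence differs from site to site. A difference was called where the log2 fold change was at least 0.7 in size and limma's Benjamini-Hochberg adjusted p, over all sites tested, was below 0.05. The features summed to between 1.463 and 2.615 Gb of aligned bases per library, and the mean coverage of a site was 0.4343 to 0.7746 per TPM, so a site of 10 TPM had a coverage of several reads per base. Read counts were not used here, so no counting interval is given. Dido1 checked the labels: at its distal 3′ end the TPM was 17.9, 16.8 and 13.7 in WT, 0.546, 0.511 and 0.307 in DIDO3ΔE16, and 12.1, 11.5 and 10.9 in DIDO3ΔCT+HADIDO3. The DIDO3ΔE16 libraries were below every other library. At a largely intronic site (uc008ojx.2, with 1787 intronic and 322 coding bases) it was 34.9 to 43.6 TPM in WT, 152.0 to 162.5 TPM in DIDO3ΔE16 and 138.1 to 163.1 TPM in DIDO3ΔCT+HADIDO3, which set both mutants apart from WT. Where in this window the reads lay was not tested. The remaining Dido1 sites, uc008ojt.2 and uc008ojv.2, had means of 4.8 and 50.3 TPM in WT and 89.5 and 6.6 TPM in DIDO3ΔE16. In DIDO3ΔCT+HADIDO3 they had 8.1 and 44.8 TPM. Against WT, uc008ojx.2 was the only Dido1 site called in DIDO3ΔCT+HADIDO3. All 8 stem cell markers listed had a mean above 1 TPM, and they summed to 2728 to 4146 TPM in WT, 4939 to 5281 TPM in DIDO3ΔE16 and 3366 to 5343 TPM in DIDO3ΔCT+HADIDO3, so that DIDO3ΔE16 lay above WT. The 8 feeder fibroblast genes, 6 of them above a mean of 1 TPM, summed to 55.8 to 60.6 TPM in WT, 114.6 to 119.9 in DIDO3ΔE16 and 55.7 to 60.6 in DIDO3ΔCT+HADIDO3. Markers of streak mesoderm summed to 56.1 to 57.04, 85.1 to 93 and 40.9 to 46.3 TPM in the same order, those of primitive endoderm to 49.6 to 74.3, 22.2 to 29.7 and 20.96 to 22.9 TPM, and neural markers to 41.7 to 46.7, 57.9 to 62.3 and 41.9 to 43.9 TPM, with Pax6 listed at 0 in every library. In such bulk RNA, fewer cells of a type and less RNA per cell cannot be told apart, and the part of these cells in the differences below was not tested.

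Against WT, none of the 13 member sites was called in either mutant. In DIDO3ΔE16 the count was 0 of 13, where 15.1% of the 21063 sites tested were called; by limma 4 of 13 had an unadjusted p under 0.05 (43.4% of all sites), and 3 of 13 (Rbm15b and 2 Spen sites) an adjusted p under 0.05, against 33.2% of all sites. In DIDO3ΔCT+HADIDO3 the count was also 0 of 13, where 17.3% of 20879 sites were called; by limma 6 of 13 (the 3 Phf3 sites, Tcea2, Tcea3 and 1 Spen site) had an adjusted p under 0.05, against 38.4% of all sites, and 6 an unadjusted p under 0.05, against 47.3%. Directly between the mutants, 1 of 13 was called, Tcea3, where 27.4% of 21172 sites were, 13.4% in its direction, which was lower in DIDO3ΔE16. By limma 7 of 13 had an adjusted p under 0.05, against 49.2% of all sites, and 8 an unadjusted p under 0.05, against 55.2%. The size of the difference, taken without its sign, had a median of 0.18 on the log2 scale over the 13 sites and 0.37 over all sites in DIDO3ΔE16 against WT. The medians were 0.37 and 0.40 in DIDO3ΔCT+HADIDO3 against WT, and 0.51 and 0.52 between the mutants. In scaled TPM, the groups did not overlap at 5 of 13 sites in DIDO3ΔE16 against WT (50.8% of all sites), at 7 of 13 in DIDO3ΔCT+HADIDO3 against WT (54.7%) and at 9 of 13 between the mutants (61.8%).

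**Figure D1:**
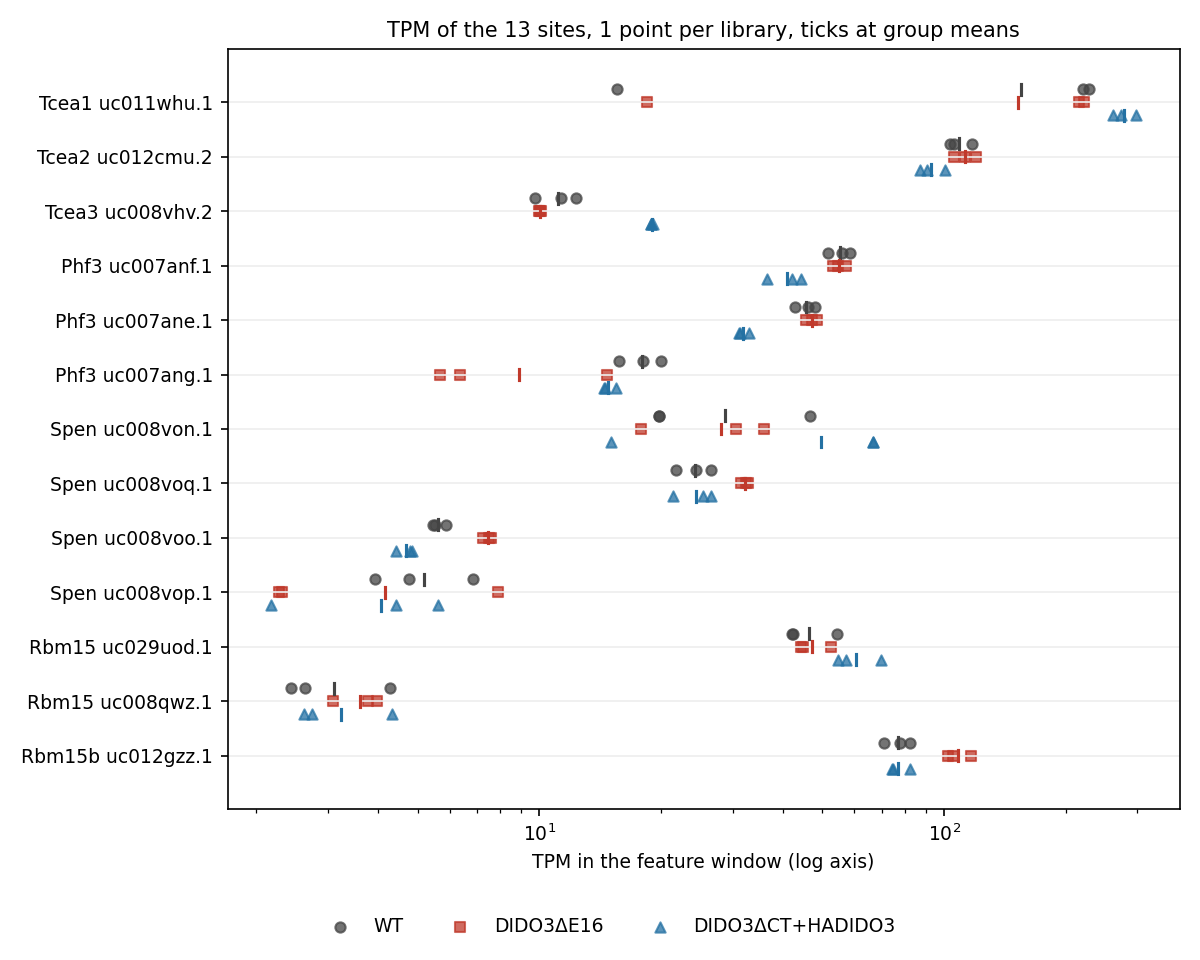
TPM of the 13 sites on a log axis, with a point for each of the 9 libraries and a vertical tick at each group mean. Tcea1 spreads from 15.5 to 298 TPM because of a low library in WT and in DIDO3ΔE16, and the 3 DIDO3ΔCT+HADIDO3 points of Tcea3 lie at 18.8 to 19.1 TPM, to the right of the other 6.

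In WT, the order of the main sites (the most abundant of each gene) by mean TPM was Tcea1 at 154 ± 120, Tcea2 at 109 ± 7.502, Rbm15b at 77.0 ± 5.64, Phf3 at 55.4 ± 3.52, Rbm15 at 46.3 ± 7.07, Spen at 28.7 ± 15.6 and Tcea3 at 11.1 ± 1.31 (SD, n = 3). Neighbours in this order overlapped for Tcea1 and Tcea2, Phf3 and Rbm15, and Rbm15 and Spen, and did not overlap for the other 3 pairs. The order was the same in DIDO3ΔE16. It is an order of windows of unlike makeup: the Tcea2 and Tcea3 windows have 186 of 2166 and 110 of 2111 bases in exons, that of Rbm15b has all 2319, and that of Phf3 has 1285 intronic bases. In DIDO3ΔCT+HADIDO3, Phf3 (40.9 ± 4.04 TPM) came after Rbm15 (60.4 ± 8.05 TPM) and Spen (49.5 ± 29.9 TPM), and Spen overlapped both of its neighbours.

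**Figure D2:**
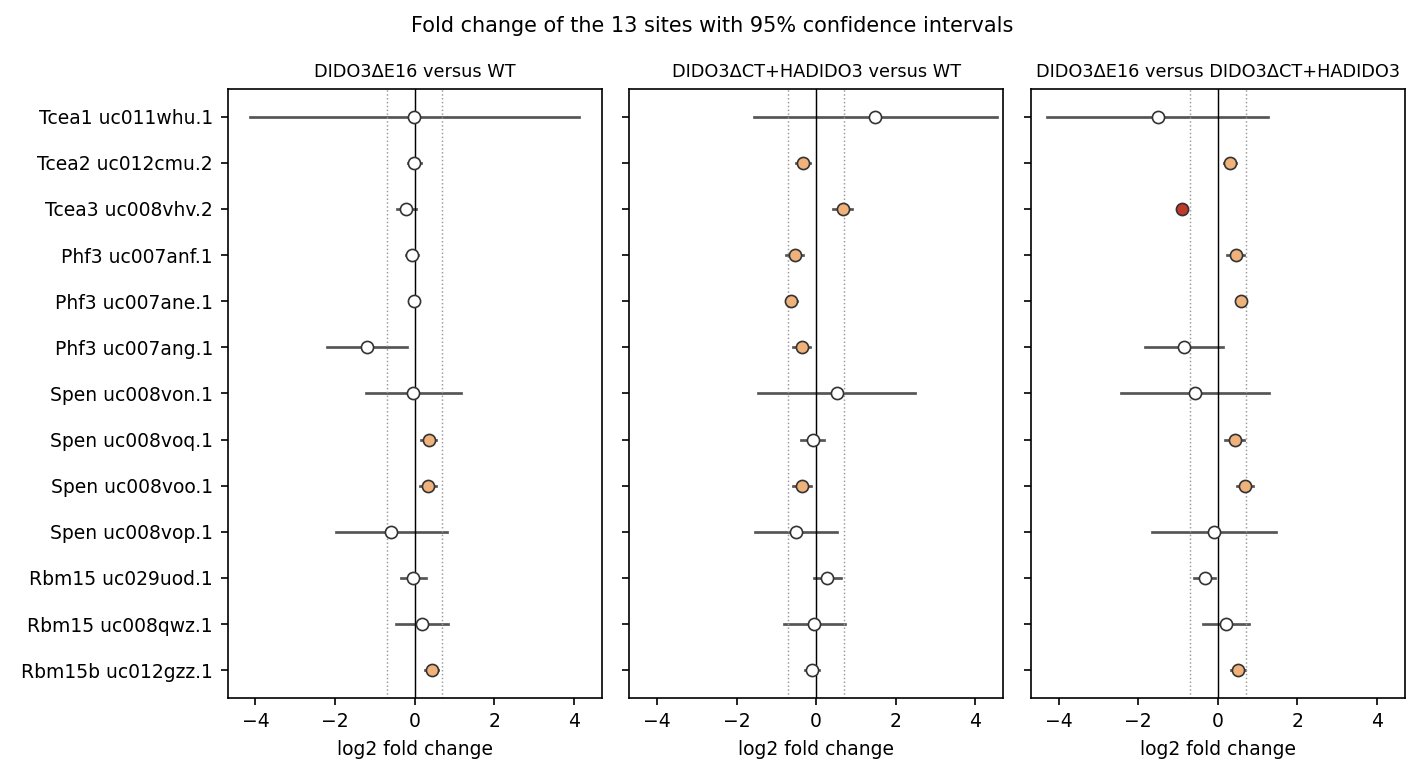
Log2 fold change of each of the 13 sites with its 95% confidence interval by limma in the 3 comparisons, with dotted lines at the 0.7 threshold. Open points have an adjusted p of 0.05 or more, orange points an adjusted p under 0.05 with a smaller fold change than the threshold, and the only red point, Tcea3 between the mutants at -0.89, was called.

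Several of the annotated 3′ ends that close these 3′UTR are shown as the last 30 bases of the transcript, since a window measures RNA around such an end. They were read from GENCODE M21 transcripts (GRCm38/mm10) and are printed 5′ to 3′, with a poly(A) signal hexamer in capitals. The hexamers AATAAA and ATTAAA, which direct cleavage and polyadenylation, were searched on the transcript's own strand only, and of 13637 such windows 45.7% held AATAAA, 13% ATTAAA and 57.3% at least 1 of them. They lie at chr1:4897880-4897909 (+ strand) for Tcea1, at chr1:30802342-30802371, chr1:30813571-30813600 and chr1:30815315-30815344 (- strand) for the distal, middle and upstream ends of Phf3, at chr4:141467890-141467919 and chr4:141484593-141484622 (- strand) for the distal end and an internal end of Spen, and at chr3:107327135-107327164 (- strand) for Rbm15.
Tcea1: aatcAATAAAgttttttgttgttaaacata
Phf3 distal: ttccgtttaAATAAAgtattttcaacgttt
Phf3 middle: gagtggggagagaggcggcaagcgggaagc
Phf3 upstream: aaatttttaaAATAAAaatttctcaaagtc
Spen distal: attacaaactttATTAAAaaatacaaaaca
Spen internal: atttgtataaaatttcagagtcttatattt
Rbm15: ctattgaagagggccttaatgacttaagtg
AATAAA began 26, 21 and 20 bases before the end in Tcea1, Phf3 distal and Phf3 upstream, and ATTAAA 18 bases before it in Spen distal. Neither hexamer was in the other 3 windows.

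Among Tcea1, Tcea2 and Tcea3, Tcea3 stood out, but Tceanc, a listed relative that is not a member, had a like pattern (below). TCEA3 is a tissue-restricted form of TFIIS. Its site (uc008vhv.2, chr4:136274789-136276899, + strand) read 12.3, 11.3 and 9.74 TPM in WT, 9.99, 10.07 and 10.02 TPM in DIDO3ΔE16, and 19.1, 18.8 and 18.9 TPM in DIDO3ΔCT+HADIDO3. Every DIDO3ΔCT+HADIDO3 library was above all others. In unscaled TPM, the DIDO3ΔE16 libraries lay between WT replicate 4 and the other WT libraries. In scaled TPM they lay below every WT library. Between the mutants the log2 fold change was -0.89 (SE 0.05, n = 3 and 3, limma adjusted p = 0.00014), lower in DIDO3ΔE16, and this call held under every alternative, with values between -0.93 and -0.84 and adjusted p from 2.17e-06 to 0.00143. Of these, the flow cell family and replicate number, taken up below, are alike in the mutants and could not move the fold change between them. Against WT, Tcea3 in DIDO3ΔCT+HADIDO3 was 1.59 times as high (log2 fold change 0.67, SE 0.09, limma adjusted p = 0.00414), just short of the 0.7 threshold. It passed without WT replicate 1 (0.73, limma adjusted p = 0.00779) and without scaling (0.77, limma adjusted p = 0.00342), and over all alternatives ranged from 0.58 to 0.77, with adjusted p from 0.000138 to 0.0194. In DIDO3ΔE16 against WT it differed by -0.21 (SE 0.09, limma adjusted p = 0.156). Of this 2111-base window 110 bases are exonic and 2001 lie past the end of the annotated gene, and where in the window the reads lay was not tested. No other site overlaps it.

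Tcea2, another tissue-restricted form of TFIIS, read 105.7, 117.2 and 103.2 TPM in WT, 106.0, 112.8 and 119.6 TPM in DIDO3ΔE16, and 87.3, 90.5 and 100.5 TPM in DIDO3ΔCT+HADIDO3. The last group lay below the other 6 libraries, and WT and DIDO3ΔE16 overlapped. The log2 fold change was -0.33 (SE 0.07, limma adjusted p = 0.0155) in DIDO3ΔCT+HADIDO3 against WT and 0.30 (SE 0.06, limma adjusted p = 0.00985) in DIDO3ΔE16 against DIDO3ΔCT+HADIDO3, both under the fold threshold, and -0.01 (95% interval -0.18 to 0.16) in DIDO3ΔE16 against WT. The site (uc012cmu.2, chr2:181687886-181690051, + strand) holds 166 bases of 3′UTR, and its window overlaps 3 sites of Rgs19 on the opposite strand. The main Rgs19 site (uc056zrk.1) read 0.115, 0.076 and 21.9 TPM in WT, 0.006, 0.006 and 0.010 TPM in DIDO3ΔE16, and 28.8, 27.3 and 26.4 TPM in DIDO3ΔCT+HADIDO3. Another Rgs19 site (uc008ong.2) went the other way, at 10.9, 10.7 and 1.75 TPM in WT. That site read 5.29, 4.74 and 3.845 TPM in DIDO3ΔE16, and 1.51, 1.13 and 1.17 TPM in DIDO3ΔCT+HADIDO3. WT replicate 4 thus sat with DIDO3ΔCT+HADIDO3 in Rgs19 and with the other WT libraries in Tcea2.

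Tcea1 encodes the TFIIS of most cell types, and its site had the highest mean of the 7 main sites in every group, though not in every library. Its 3 features share their coordinates (chr1:4896365-4899909, + strand, 1545 bases of 3′UTR) and summed to 15.5, 227 and 220 TPM in WT, 18.4, 221 and 215 TPM in DIDO3ΔE16, and 261, 273 and 298 TPM in DIDO3ΔCT+HADIDO3. WT replicate 1 was 14.4-fold and DIDO3ΔE16 replicate 1 11.9-fold below the mean of the other libraries of its group. With them in, the spread left no difference measurable: the log2 fold change was 0.00 in DIDO3ΔE16 against WT (95% interval -4.13 to 4.12) and 1.49 in DIDO3ΔCT+HADIDO3 against WT (95% interval -1.56 to 4.54). Leaving out both libraries, it was -0.12 (limma adjusted p = 0.113), 0.20 (limma adjusted p = 0.0532) and, between the mutants, -0.33 (limma adjusted p = 0.00996). Both were picked for their Tcea1 values, so these adjusted p cannot be read as tests of Tcea1. Adjusted p over all alternatives ran from 0.113 to 1.0, from 0.0532 to 0.957 and from 0.00996 to 0.439 for the 3 comparisons.

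With its low libraries in, Tcea1 also had the widest range of group means among the 7 genes, 1.496 on the log2 scale. Leaving them out, its difference between the mutants was -0.33, smaller in size than the range of Tcea3 (0.877). Tcea1 was compared with 9336 other genes over the 9 libraries. The 3 most like it by Pearson's r of log2 TPM were Ckap5 (r = 0.994), Mrpl38 (r = 0.994) and Pxn (r = 0.992), and 12 genes reached 0.9. What they share is the low pair of libraries: Ckap5 read 2.24 TPM in WT replicate 1, 3.09 TPM in DIDO3ΔE16 replicate 1 and 55.9 to 68.4 TPM in the other 7. Over all sites of a mean of 5 TPM or more, 17 of 14006 (0.121%) were at least 5-fold lower in both libraries than in each of the other 7, and 8 of the 17 (47.1%) were made of more than 1 feature, as Tcea1 is, beside 36.4% of the 14006. How the authors' StringTie run divided reads among such features was not tested.

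Phf3 encodes a reader of the phosphorylated tail of RNA polymerase II, and the protein is the closest relative of DIDO by domains. Its most distal site, at the end of the gene (uc007ane.1, chr1:30800342-30803798, - strand, 1457 bases of 3′UTR), read 48.0, 46.0 and 42.9 TPM in WT, 45.5, 47.1 and 48.4 TPM in DIDO3ΔE16, and 32.9, 31.1 and 31.3 TPM in DIDO3ΔCT+HADIDO3. The DIDO3ΔCT+HADIDO3 libraries were below the other 6, which overlapped. Against WT the log2 fold change was -0.62 in DIDO3ΔCT+HADIDO3 (SE 0.06, limma adjusted p = 0.00126), 0.649 of the WT level, and -0.02 in DIDO3ΔE16 (95% interval -0.14 to 0.10). DIDO3ΔE16 was higher than DIDO3ΔCT+HADIDO3 by 0.58 (SE 0.05, limma adjusted p = 0.000504). None of these reached the 0.7 threshold; a 1.5-fold threshold would call the first.

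The middle site of Phf3 (uc007anf.1, chr1:30811571-30813884) lies 11232 bases upstream of the gene's 3′ end and has 314 bases of 3′UTR, with 332 coding and 1285 intronic bases also in its window. It read 56.01, 58.6 and 51.6 TPM in WT, 57.3, 53.1 and 54.6 TPM in DIDO3ΔE16, and 42.0, 36.5 and 44.3 TPM in DIDO3ΔCT+HADIDO3. The pattern was that of the distal site: the log2 fold change in DIDO3ΔCT+HADIDO3 was -0.54 against WT (SE 0.09, limma adjusted p = 0.00676), and DIDO3ΔE16 overlapped WT, at -0.07 (95% interval -0.23 to 0.08).

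The upstream site of Phf3 (uc007ang.1, chr1:30813315-30816281), 12976 bases from the gene's end, shares 570 bases with the middle one and has 132 coding and 1258 intronic bases in its window. It read 19.9, 18.04 and 15.7 TPM in WT, 14.7, 6.37 and 5.68 TPM in DIDO3ΔE16, and 14.5, 14.5 and 15.4 TPM in DIDO3ΔCT+HADIDO3. All DIDO3ΔE16 libraries were below all WT libraries, but replicate 1 stood well above replicates 2 and 3 and close to DIDO3ΔCT+HADIDO3. DIDO3ΔE16 replicate 1 also had the fewest aligned bases in features of all libraries (1.463 Gb), and the part of depth was not tested. The log2 fold change in DIDO3ΔE16 against WT was -1.19 (SE 0.39, 95% interval -2.19 to -0.19), past the fold threshold with a limma adjusted p of 0.0749, so it was not called. It was called without DIDO3ΔE16 replicate 1 (-1.62, limma adjusted p = 0.00405), without that library and WT replicate 1 (-1.55, limma adjusted p = 0.0142) and in a fit of all 9 libraries together (-1.19, limma adjusted p = 0.0286), and over all alternatives the adjusted p ran from 0.00405 to 0.193. In DIDO3ΔCT+HADIDO3 against WT the log2 fold change was -0.37 (SE 0.09, limma adjusted p = 0.0257), and the direct difference of -0.84 (limma adjusted p = 0.134) was called only without DIDO3ΔE16 replicate 1 (-1.27, limma adjusted p = 0.00106), with adjusted p from 0.00106 to 0.298 over its alternatives.

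As a share of the TPM at the 3 Phf3 sites, the upstream site held 16.1%, 14.7% and 14.3% in WT, 12.5%, 5.97% and 5.23% in DIDO3ΔE16, and 16.2%, 17.7% and 17.0% in DIDO3ΔCT+HADIDO3. The DIDO3ΔE16 share was below all others, with a mean difference from WT of -7.12 percentage points, and the DIDO3ΔCT+HADIDO3 share was 1.92 points above WT in its mean, without overlap. An exact two-sided permutation test gave p = 0.1 for each, the smallest that 3 against 3 libraries allow, and an adjusted p of 0.45 over the 27 share tests made, so this test could not have passed whatever the shares. Without DIDO3ΔE16 replicate 1 the first difference was -9.42 points.

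**Figure D3:**
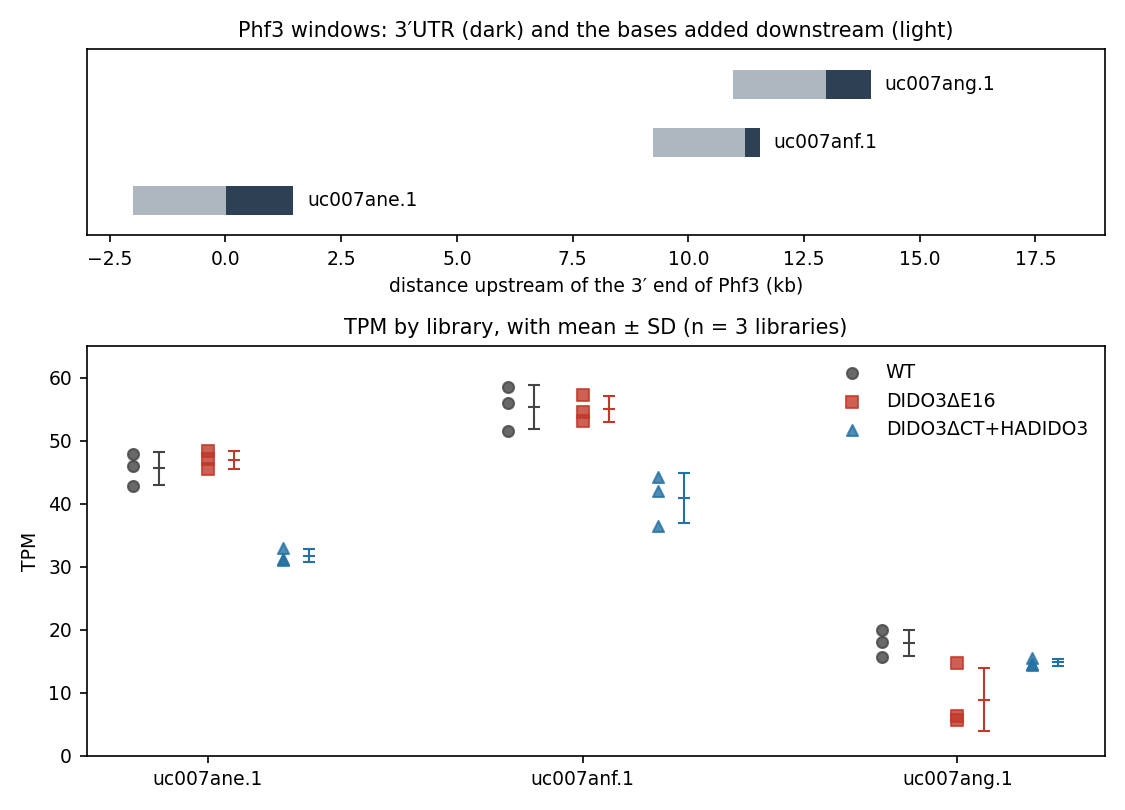
Above, the 3 Phf3 windows by distance in kb upstream of the gene's 3′ end, with 3′UTR dark and the added bases light. Below, TPM of each window in every library with mean and SD (n = 3): DIDO3ΔCT+HADIDO3 is lowest in the first 2 windows, and in uc007ang.1 the DIDO3ΔE16 libraries split between 14.7 TPM and about 6 TPM.

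SPEN, the founding SPOC protein, recruits histone deacetylase corepressors to chromatin and to Xist RNA. The distal site of Spen (uc008von.1 with uc008vom.2, chr4:141465890-141468905, - strand) read 46.7, 19.8 and 19.7 TPM in WT, 30.5, 35.8 and 17.8 TPM in DIDO3ΔE16, and 66.8, 66.7 and 15.02 TPM in DIDO3ΔCT+HADIDO3. All 3 groups overlapped, and WT replicate 1, DIDO3ΔE16 replicates 1 and 2 and DIDO3ΔCT+HADIDO3 replicates 1 and 2 were high within their groups. No difference was measurable, at -0.03 in DIDO3ΔE16 against WT (95% interval -1.22 to 1.16) and 0.52 in DIDO3ΔCT+HADIDO3 against WT (95% interval -1.45 to 2.49). The direct difference of -0.57 was called only without DIDO3ΔCT+HADIDO3 replicate 3 (-1.31, limma adjusted p = 0.0449), with adjusted p from 0.0449 to 0.854 over its alternatives.

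The distal Spen site shares 1779 bases with the 3′ site of Zbtb17 on the opposite strand. The Zbtb17 site (uc008vol.2) read 50.6, 65.7 and 58.7 TPM in WT, 101, 95.8 and 84.7 TPM in DIDO3ΔE16, and 40.01, 37.3 and 49.5 TPM in DIDO3ΔCT+HADIDO3. In WT and in DIDO3ΔCT+HADIDO3 the library or libraries highest in Spen were the lowest in Zbtb17, whereas in DIDO3ΔE16 replicate 3 was lowest in both. The sum of the overlapping sites was 97.3, 85.5 and 78.4 TPM, 131.8, 131.6 and 102.5 TPM, and 106.9, 103.9 and 64.5 TPM in the same order. The authors' StringTie command gave no strand option, and how reads of the shared bases were divided between the strands was not tested.

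The other Spen sites lie inside the gene. The most upstream (uc008voq.1, 52547 bases from the gene's end, largely intronic) read 24.4, 26.6 and 21.7 TPM in WT, 31.4, 32.8 and 32.4 TPM in DIDO3ΔE16, and 26.5, 21.4 and 25.4 TPM in DIDO3ΔCT+HADIDO3, so that DIDO3ΔE16 was above both. The log2 fold change was 0.35 against WT (SE 0.08, limma adjusted p = 0.0229) and 0.42 against DIDO3ΔCT+HADIDO3 (SE 0.09, limma adjusted p = 0.0143). An internal site (uc008voo.1, 16703 bases from the end, with 1899 intronic and 101 coding of 2909 bases) was also highest in DIDO3ΔE16, at a lower level. It read 5.5, 5.5 and 5.9 TPM in WT, 7.6, 7.2 and 7.5 TPM in DIDO3ΔE16 and 4.8, 4.4 and 4.8 TPM in DIDO3ΔCT+HADIDO3, with no overlap between any pair of groups. Its log2 fold changes were 0.34 in DIDO3ΔE16 against WT (SE 0.08, limma adjusted p = 0.0267), -0.36 in DIDO3ΔCT+HADIDO3 against WT (SE 0.09, limma adjusted p = 0.0261) and 0.68 between the mutants (SE 0.08, limma adjusted p = 0.00154). The last was called without DIDO3ΔE16 replicate 2 (0.70, limma adjusted p = 0.00706) or DIDO3ΔCT+HADIDO3 replicate 1 (0.71, limma adjusted p = 0.00534), and its adjusted p ranged from 0.000229 to 0.00794. The remaining site (uc008vop.1), which shares 550 bases with uc008voo.1, ranged from 2.2 to 7.9 TPM with all groups overlapping, and was called in DIDO3ΔE16 against WT only without DIDO3ΔE16 replicate 2 (-1.17, limma adjusted p = 0.0486, from 0.0486 to 0.758 over its alternatives).

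Since the distal Spen site varied within groups, so did its share of the 4 Spen sites, from 33.7% to 58.0% in WT, from 29.7% to 42.7% in DIDO3ΔE16 and from 29.6% to 68.8% in DIDO3ΔCT+HADIDO3. These ranges overlapped, with exact permutation p of 0.8 and 0.4 against WT.

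**Figure D4:**
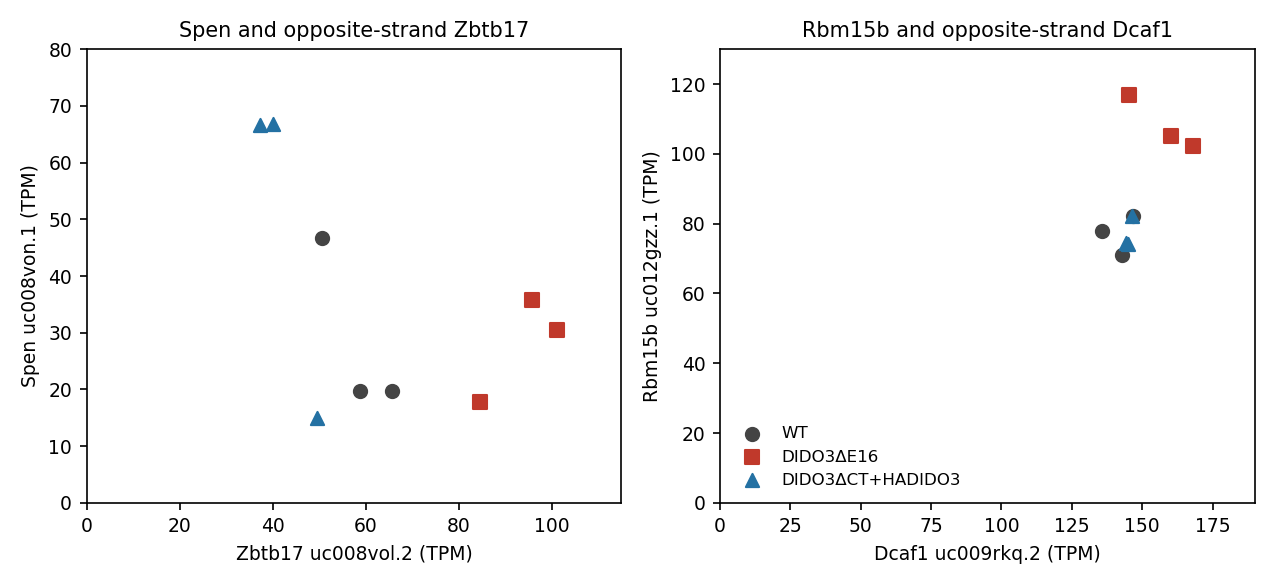
TPM of the Spen distal site against the opposite-strand Zbtb17 site, and of the Rbm15b site against the opposite-strand Dcaf1 site, with a point per library. The DIDO3ΔE16 points are the highest in Zbtb17 (84.7 to 101 TPM) and in Rbm15b (102.3 to 116.8 TPM).

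RBM15 and RBM15B are RNA-binding SPOC proteins that bring the m6A methylase to its targets, Xist among them. Rbm15b (uc012gzz.1, chr9:106881985-106884303, - strand, wholly in untranslated exon sequence of the gene, 3067 bases before its 3′ end) read 82.1, 77.9 and 71.0 TPM in WT, 105.2, 102.3 and 116.8 TPM in DIDO3ΔE16, and 74.6, 82.2 and 74.3 TPM in DIDO3ΔCT+HADIDO3. The DIDO3ΔE16 libraries were above the other 6, and WT and DIDO3ΔCT+HADIDO3 overlapped. The level in DIDO3ΔE16 was 1.34 times that of WT (log2 fold change 0.43, SE 0.07, limma adjusted p = 0.00815) and 1.42 times that of DIDO3ΔCT+HADIDO3 (0.51, SE 0.07, limma adjusted p = 0.00294), both under the fold threshold, and DIDO3ΔCT+HADIDO3 against WT was -0.10 (95% interval -0.28 to 0.08). The site shares 1008 bases with a Dcaf1 site (uc009rkq.2) on the opposite strand, which read 135.9 to 146.9 TPM in WT, 145.2 to 168.0 TPM in DIDO3ΔE16 and 144.4 to 146.6 TPM in DIDO3ΔCT+HADIDO3. That site did not pass in DIDO3ΔE16 against WT (log2 fold change 0.09, limma adjusted p = 0.368).

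The main Rbm15 site (uc029uod.1, chr3:107325135-107330203, - strand) read 54.5, 42.4 and 42.1 TPM in WT, 44.2, 44.8 and 52.6 TPM in DIDO3ΔE16, and 54.6, 57.1 and 69.6 TPM in DIDO3ΔCT+HADIDO3. DIDO3ΔCT+HADIDO3 was above DIDO3ΔE16, and its lowest library was level with WT replicate 1. No comparison passed: the log2 fold change was -0.03 in DIDO3ΔE16 against WT (95% interval -0.33 to 0.28), 0.28 in DIDO3ΔCT+HADIDO3 against WT (95% interval -0.05 to 0.61) and -0.33 between the mutants (limma adjusted p = 0.052). The other Rbm15 site (uc008qwz.1), which shares 1147 bases with it, held 2.4 to 4.3 TPM over all libraries and 4.27% to 9.16% of the TPM of the gene, with every group overlapping.

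The library names of WT replicates 1 and 4 begin unlike those of the other 7 libraries, and the beginning was read as a flow cell family, which the labels do not state. By it, WT replicate 2-3 is the only WT library of the mutants' family. With flow cell family as a covariate in a fit of all 9 libraries, no member site was called against WT. Tcea3 was called between the mutants (-0.88, limma adjusted p = 0.000289). By these names all mutant libraries are of 1 family, so the covariate could not move the fold change between the mutants. Against WT, the adjusted p stayed under 0.05 for DIDO3ΔCT+HADIDO3 at the distal and middle Phf3 sites (-0.63, limma adjusted p = 0.00198, and -0.62, limma adjusted p = 0.00827), at Tcea3 (0.64, limma adjusted p = 0.00984) and at Tcea2 (-0.44, limma adjusted p = 0.0086), and for DIDO3ΔE16 at Rbm15b (0.41, limma adjusted p = 0.0423). It did not at the upstream Phf3 site in DIDO3ΔCT+HADIDO3 (-0.38, limma adjusted p = 0.645) or at Spen uc008voo.1 in DIDO3ΔE16 (0.38, limma adjusted p = 0.0608) and DIDO3ΔCT+HADIDO3 (-0.31, limma adjusted p = 0.088), where the fold changes stayed close to those without the covariate. At Spen uc008voq.1 in DIDO3ΔE16 the fold change was smaller as well (0.22, limma adjusted p = 0.296). Over all alternatives, limma's adjusted p for DIDO3ΔCT+HADIDO3 against WT ran from 8.98e-06 to 0.00838 at the distal Phf3 site, from 0.0014 to 0.026 at the middle one, from 0.0114 to 0.645 at the upstream one, from 0.000602 to 0.0769 at Tcea2 and from 0.00885 to 0.088 at Spen uc008voo.1. For DIDO3ΔE16 against WT it ran from 9.59e-05 to 0.0599 at Rbm15b, from 0.0114 to 0.181 at Spen uc008voo.1 and from 0.00228 to 0.296 at Spen uc008voq.1.

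Partners of these proteins and other factors of the same kind were read from 6 lists of 56 genes, each gene by its main site. In DIDO3ΔE16 against WT, 3 of 52 tested genes were called (5.8%), where 16% of 14974 genes were. In DIDO3ΔCT+HADIDO3 against WT, 4 of 50 were called (8.0%), where 18.1% of 14722 genes were. With flow cell family as a covariate the counts were 1 and 4 of 50 (Cdk12 and Polr2i, listed at 0 in a library, were not tested there). Those 4 are not the same genes as the 4 above, since Nelfa is not among them. The 8 relatives listed for the N-terminal domain of TFIIS (Iws1, Med26, Eloa and others, with Tceanc and Tceanc2, which are named for the central domain as well) had none called in DIDO3ΔE16 and 1, lower, in DIDO3ΔCT+HADIDO3. By limma 5 and 6 of the 8 had an unadjusted p under 0.05, beside 47.9% and 51.4% of all genes. The called gene was Tceanc2, with 14.2 ± 0.21 TPM in WT, 22.6 ± 1.14 TPM in DIDO3ΔE16 and 3.64 ± 0.69 TPM in DIDO3ΔCT+HADIDO3 (SD, n = 3). It fell by 2.05 on the log2 scale in DIDO3ΔCT+HADIDO3 against WT (SE 0.14, limma adjusted p = 0.00051), a call that held under every alternative, and was 0.61 higher in DIDO3ΔE16 than in WT (limma adjusted p = 0.00132), under the threshold. Between the mutants Tceanc2 was called at 2.63 (SE 0.14, limma adjusted p = 0.000116), higher in DIDO3ΔE16. Tceanc was called there at -0.88 (SE 0.07, limma adjusted p = 0.000355), where 27.4% of 21172 sites were called. Tceanc read 12.7 ± 0.95 TPM in WT, 9.59 ± 0.49 TPM in DIDO3ΔE16 and 17.9 ± 0.84 TPM in DIDO3ΔCT+HADIDO3 (SD, n = 3), a pattern like that of Tcea3. The median over the 8 genes was -0.02 in DIDO3ΔE16 and 0.11 in DIDO3ΔCT+HADIDO3, beside 0.00 and -0.05 over all genes.

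The RNA polymerase II elongation factors had 1 higher and 1 lower of 27 tested in DIDO3ΔE16, and 1 higher and 1 lower of 26 in DIDO3ΔCT+HADIDO3, with medians of -0.09 and 0.01. By limma 19 of 27 and 7 of 26 had an unadjusted p under 0.05, beside 47.9% and 51.4% of all genes, and no test set the list against other genes. In DIDO3ΔE16, Nelfe, a subunit of the pausing factor NELF, rose from 23.6 ± 1.41 to 40.2 ± 1.65 TPM (log2 fold change 0.71, SE 0.06, limma adjusted p = 0.00103), at the edge of the threshold. It was just under 0.7 without WT replicate 2-3 (0.67), WT replicate 4 (0.695) or DIDO3ΔE16 replicate 3 (0.68). The same held with a pseudocount of 1 TPM (0.69), the replicate number as a block (0.68) or TPM summed over the gene (0.69). The Nelfe window overlaps 2 sites on the opposite strand. Cdk12, a kinase of the polymerase tail, fell in DIDO3ΔE16 from 56.8 ± 5.59 to 30.4 ± 1.89 TPM (log2 fold change -0.96, SE 0.08, limma adjusted p = 0.00117), at a site that overlaps 1 other on its strand. In DIDO3ΔCT+HADIDO3, Supt16, a subunit of the histone chaperone FACT, fell from 8.95 ± 3.66 to 1.83 ± 1.02 TPM (log2 fold change -2.37, SE 0.55, limma adjusted p = 0.0229), and Nelfa, of NELF, rose from 1.42 ± 0.26 to 2.56 ± 0.33 TPM (log2 fold change 0.72, SE 0.20, limma adjusted p = 0.0397). Neither call held with every library left out in turn, although the fold changes stayed of like size: Supt16 was not called without WT replicate 2-3 (-2.14), WT replicate 4 (-2.20), DIDO3ΔCT+HADIDO3 replicate 1 (-2.39) or replicate 3 (-1.96), and Nelfa was not called without WT replicate 1 (0.58), WT replicate 4 (0.75), or DIDO3ΔCT+HADIDO3 replicates 1 (0.61), 2 (0.77) or 3 (0.79). With flow cell family as a covariate Nelfa was not called (0.49, limma adjusted p = 0.479, from 0.0165 to 0.479 over its alternatives). The Supt16 window overlaps 2 sites on the opposite strand.

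Of the RNA polymerase subunits with a zinc ribbon like that of TFIIS, 1 of 3 tested was called in DIDO3ΔE16 and 0 of 2 in DIDO3ΔCT+HADIDO3. By limma 2 of 3 and 1 of 2 had an unadjusted p under 0.05. The called gene, Polr2i, read 0.12 ± 0.01 TPM in WT and 2.02 ± 0.47 TPM in DIDO3ΔE16, in a window of 2040 bases of which 40 are 3′UTR, overlapping 1 site on the opposite strand, and where in it the reads lay was not tested (log2 fold change 3.18, SE 0.23, limma adjusted p = 0.000804, and 1.38 with a pseudocount of 1 TPM). None of 5 tested genes of the m6A writer complex and none of the 7 corepressor partners of SPEN was called in either mutant. By limma, 1 and 2 of the writer genes and 2 and 2 of the SPEN partners had an unadjusted p under 0.05 in DIDO3ΔE16 and DIDO3ΔCT+HADIDO3, shares below those of all genes (47.9% and 51.4%). Of the partners of SPOCD1 in piRNA-directed methylation, Piwil4 and Dnmt3c had no site. Tex15 fell in DIDO3ΔCT+HADIDO3 from 1.43 ± 0.27 to 0.56 ± 0.06 TPM (log2 fold change -1.28, SE 0.20, limma adjusted p = 0.00647), which with a pseudocount of 1 TPM was -0.67. Dnmt3l read 229.8 ± 4.24 TPM in WT and 39.5 ± 31.2 TPM in DIDO3ΔCT+HADIDO3 (log2 fold change -3.43, SE 1.21, limma adjusted p = 0.0848), which was not called.

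**Figure D5:**
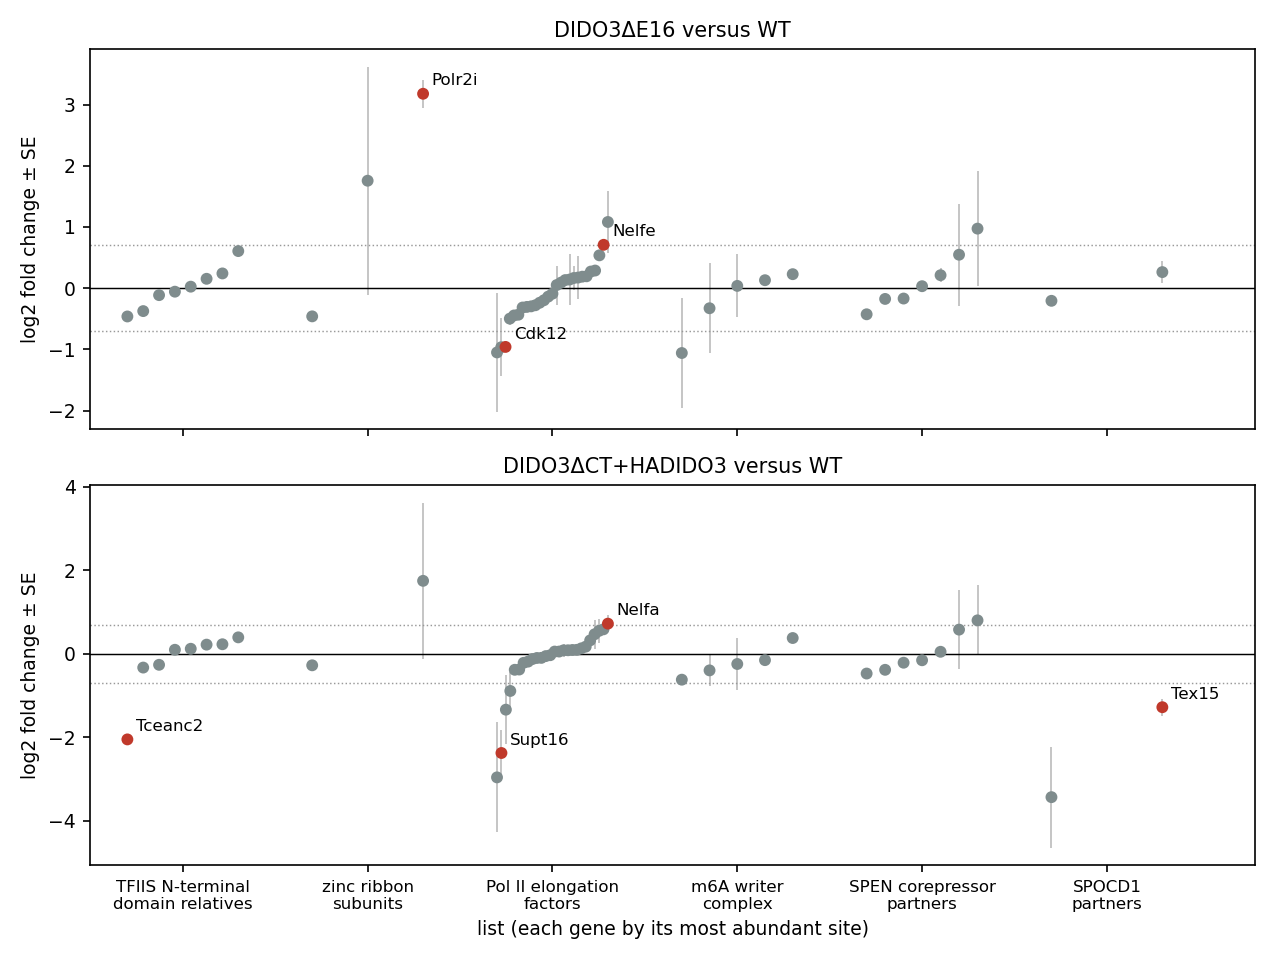
Log2 fold change with SE of each gene of the 6 lists by its most abundant site, in DIDO3ΔE16 (above) and DIDO3ΔCT+HADIDO3 (below) against WT, with dotted lines at 0.7 and called genes named in red. Most points lie between the dotted lines, with 3 of 52 and 4 of 50 genes called.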

How the data were processed

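Stranded paired-end reads were aligned by the authors to mm10 (BWA-MEM), passed through Picard for duplicates and quantified with StringTie over UCSC 3′UTR lengthened by 2 kb (BWA 0.7.15 and StringTie 1.3.3 per the submitters' processing notes). The deposited values are TPM per feature; the coverage the authors deposited beside them was used only for depth. Features were named by 3′ end, exon or intron overlap with GENCODE M21, and 0 columns of other samples were found. For scaling between libraries, log2 ratios to the geometric mean of the libraries were averaged after trimming 30% at each end, and log2(TPM + 0.1) of sites above 0 in every library compared was tested with limma 3.58.1 in R 4.3.3, 3 libraries against 3, with trend and robust moderation and Benjamini-Hochberg adjustment. Fold changes are on that scale, which understates those of low sites. The study tested with a count model; the deposited values are not counts, so limma was used in its place. On simulated data with 200 changed sites, 62.3%, 48.7% and 56.3% of those changed by a log2 of 1 were recovered in DIDO3ΔE16 against WT, DIDO3ΔCT+HADIDO3 against WT and directly (21063, 20879 and 21172 sites). Members and lists were chosen with earlier results of these data known. Every member site was described. Of a list, at most the 3 largest called genes of each comparison with WT were named. Dnmt3l, Tceanc and the direct comparison of Tceanc2 were added after their values were seen. Alternatives changed the pseudocount, filter, scaling, fit, threshold and summing, or left out each library.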

Additional observations from a re-analysis of the deposited data

How the results depend on the processing

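Of 816 alternative values of the 13 sites, 754 kept their direction and their side of the threshold, 15 moved past it, none fell below it, and 47 differed in sign with an adjusted p of 0.05 or more both ways. Only the Tcea3 call between the mutants could have fallen below it. The 15 values that moved past it are given beside their results or follow from the 1.5-fold threshold. Called member sites numbered 0, 0 and 1 in DIDO3ΔE16 against WT, DIDO3ΔCT+HADIDO3 against WT and directly. A fit of all 9 libraries gave 1 in the first, no scaling gave 1 in the second, and a 1.5-fold threshold gave 2 in the second and 2 directly. Without WT replicate 1 and DIDO3ΔE16 replicate 1, chosen for their Tcea1 values after seeing the data, the counts were 1, 1 and 2. Leaving out 1 library at a time gave 0 to 1, 0 to 1 and 1 to 2, and the cause was not tested. With the replicate number as a block the counts stayed 0, 0 and 1, and 2459 of 20527 sites were called in the first comparison, 2982 in the second and 5244 directly, against 3199, 3668 and 5639 in the fit of all 9 libraries without it. Same-numbered libraries correlated between -0.06 and 0.03 in their deviations from group means, so the numbers were not taken to pair them, although replicate 1 of WT and of DIDO3ΔE16 share the 17 low sites. List genes called against WT under the block numbered 0 and 2 of 50, beside 1 and 4 of 50 in the fit of all 9 without it, where Cdk12 and Polr2i were not tested. The 4 in that fit do not include Nelfa (0.73, limma adjusted p = 0.101), so they are not the 4 called with 3 libraries against 3. Of 361 alternative values of the 7 list genes called against WT (Dnmt3l and Tceanc had none), 26 lost a call, 1 gained one and none reversed one. Scaling moved the median of all sites by under 0.1. The spread between libraries limits Tcea1 and the distal Spen site, and what depth limits was not tested.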
